A study of Mus musculus with 8 samples.

Results

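Mature microRNAs (miRNAs) of mouse embryonic stem cells (ESC) without huntingtin were set beside those of wild-type ESC. Small RNA was sequenced from 1 wild-type parental ESC line and from 1 ESC line homozygous for the Hdh ex4/5 null allele of Htt, the mouse gene for huntingtin, named Htt-null here. Both lines were kept undifferentiated with leukemia inhibitory factor, on irradiated mouse embryonic fibroblasts as feeders or on gelatin. The series holds 8 libraries in all, for RNA-seq and small RNA-seq of these lines and of the same lines after retinoic acid differentiation (RA-DIFF), with 1 library for each condition. Each genotype is thus 1 line and 1 library, nothing in the labels describes separate cultures, and no p-value is given. A difference between the genotypes cannot be told apart from a difference between the lines or between the libraries. Of the 1073 mature miRNAs with an entry, 809 had at least 10 counts in either ESC library and are described here, and 706 of them had 10 or more in both. The Htt-null ESC library held 11976744 counts and the wild-type one 12888905, of which the 264 entries under the limit took 933 and 869. The 13 miRNAs whose higher count was exactly 10 had log2 ratios from -1.70 to 1.47, and the 21 whose higher count was 9, just outside, from -4.31 to 1.82.

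A miRNA is made from a hairpin whose stem is cut by Drosha and then by Dicer, and either the strand from the 5′ side (5p) or that from the 3′ side (3p) is kept by an Argonaute protein. The seed, the stretch near the 5′ end that pairs with target mRNAs, defines families, and hairpins that lie close together are often cut from a single transcript. In mouse ESC the miR-290 cluster is the best known miRNA group, with a seed close to those of the miR-302 and miR-17 groups, which promote the cell cycle, while the let-7 family accumulates on differentiation and is held back in ESC by the Lin28 proteins. The imprinted Dlk1-Dio3 region of chromosome 12 encodes one of the largest miRNA groups of the genome, made from non-coding RNAs of the maternal chromosome.

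The sequences below are those of the miRNAs that carried most of the counts or most of the difference between the libraries, with the seed (bases 2 to 8 from the 5′ end) in capitals. They are taken from RefSeq on GRCm38.p6, which gave a sequence for 689 of the 809 miRNAs. The first set holds the 5p strands of the miR-183/miR-96/miR-182 cluster, the group with the most counts, and of miR-191.
miR-182-5p: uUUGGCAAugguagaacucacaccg
miR-183-5p: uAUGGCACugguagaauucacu
miR-96-5p: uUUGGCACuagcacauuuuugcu
miR-191-5p: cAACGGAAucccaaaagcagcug
The second set shows the seed that the miR-290 and miR-302 clusters have in common, although the clusters stood on opposite sides of 0.
miR-295-3p: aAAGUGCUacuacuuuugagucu
miR-294-3p: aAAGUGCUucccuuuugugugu
miR-291a-3p: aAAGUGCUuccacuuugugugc
miR-302b-3p: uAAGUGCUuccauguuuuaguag
miR-302d-3p: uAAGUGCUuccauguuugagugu
The third set pairs members of the miR-17-92 cluster with their counterparts in the X-linked miR-106a-363 cluster, which have the same seeds.
miR-17-5p: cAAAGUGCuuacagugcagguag
miR-106a-5p: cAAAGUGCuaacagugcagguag
miR-20a-5p: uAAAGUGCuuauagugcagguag
miR-20b-5p: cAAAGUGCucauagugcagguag
miR-18a-5p: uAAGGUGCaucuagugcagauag
miR-18b-5p: uAAGGUGCaucuagugcuguuag
miR-92a-3p: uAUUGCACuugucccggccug
miR-363-3p: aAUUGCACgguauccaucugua
The fourth set holds the most abundant miRNAs of the Dlk1-Dio3 region, whose seeds differ from each other, and the lone hairpin of that region that was lower in Htt-null ESC.
miR-127-3p: uCGGAUCCgucugagcuuggcu
miR-410-3p: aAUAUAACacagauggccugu
miR-434-3p: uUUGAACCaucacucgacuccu
miR-541-5p: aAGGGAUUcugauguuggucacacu
miR-1247-5p: aCCCGUCCcguucguccccgga
The fifth set holds strands of let-7, miR-10 and miR-465, all with ratios below 0 and all but miR-10b-5p called lower.
let-7a-5p: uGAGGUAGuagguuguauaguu
let-7d-5p: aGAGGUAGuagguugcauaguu
let-7f-5p: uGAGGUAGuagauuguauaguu
miR-10a-5p: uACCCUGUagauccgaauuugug
miR-10b-5p: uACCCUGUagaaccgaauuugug
miR-465a-5p: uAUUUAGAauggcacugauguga
miR-465b-5p: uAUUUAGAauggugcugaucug
miR-465c-5p: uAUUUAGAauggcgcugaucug

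The targeted gene and the cell identity were looked at first, in the RNA-seq libraries of the same lines. Htt (chr5:34761740-34912534, plus strand, GRCm38) had 7260 reads in Htt-null ESC, or 114 CPM (counts scaled to a library total of 1000000), against 14385 reads, or 164 CPM, in the wild type. Counts over the whole gene also take in exons outside the deletion, so these reads are a weak check of the label. The RA-DIFF library labelled Htt-null had 96.3 CPM of Htt against 74.3 CPM in its counterpart labelled wild type, and the RA-DIFF values are therefore named by label and used only for the miR-10 family and in the closing observations. Both ESC libraries were rich in the pluripotency transcripts Pou5f1 (674 and 747 CPM in Htt-null and wild-type ESC) and Nanog (725 and 705 CPM), and in the ESC miRNAs of the miR-290 cluster, which took 20.0% and 24.9% of all counts. The values that follow are shares of a library's counts, CPM, or log2 ratios between Htt-null and wild-type ESC after TMM scaling, positive where Htt-null was higher. A miRNA is called higher or lower where its log2 ratio lies beyond 0.75 in either direction, and is otherwise said to be within the limit. Each ratio has a 95% interval that covers counting error only, since PCR copies of a molecule are counted as separate reads.

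In Htt-null ESC 196 of the 809 miRNAs (24.2%) were higher and 150 (18.5%) were lower than in wild-type ESC. These shares are the background against which each group is read. Counting error alone left 278 miRNAs with an interval that spans 0, and the whole interval lay beyond the limit in 63.3% of the higher and 37.3% of the lower miRNAs. Among the 474 miRNAs with at least 100 counts in either library, 119 were higher and 65 lower. Precision followed the counts, since the interval had a median width of 2.61 log2 units for the 198 miRNAs with 10 to under 30 counts and of 0.05 for the 88 with 10000 or more. The median log2 ratio of all 809 was -0.04. With library size in place of TMM every ratio moves up by 0.23, so the ratios of plain shares lie that much above the log2 ratios given here.

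The libraries were alike in their make-up and differed in weights. Across the 809 miRNAs the log2 CPM of the libraries had a Pearson correlation of 0.975, which describes miRNAs and not replicates. Of the 10 most abundant miRNAs of each library 8 were shared, and these 10 took 61.4% of the counts in Htt-null and 67.7% in wild-type ESC. The 5 leading miRNAs of Htt-null ESC and the 4 of wild-type ESC were enough to pass 50% of the counts. The miRNAs with a larger share in Htt-null ESC gained 18.4 percentage points in sum, of which 11.8 belonged to the Dlk1-Dio3 region. Over the 689 miRNAs with a sequence the log2 ratio had a Pearson correlation of 0.04 with the share of G and C and of -0.03 with length.

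**Figure D1:**
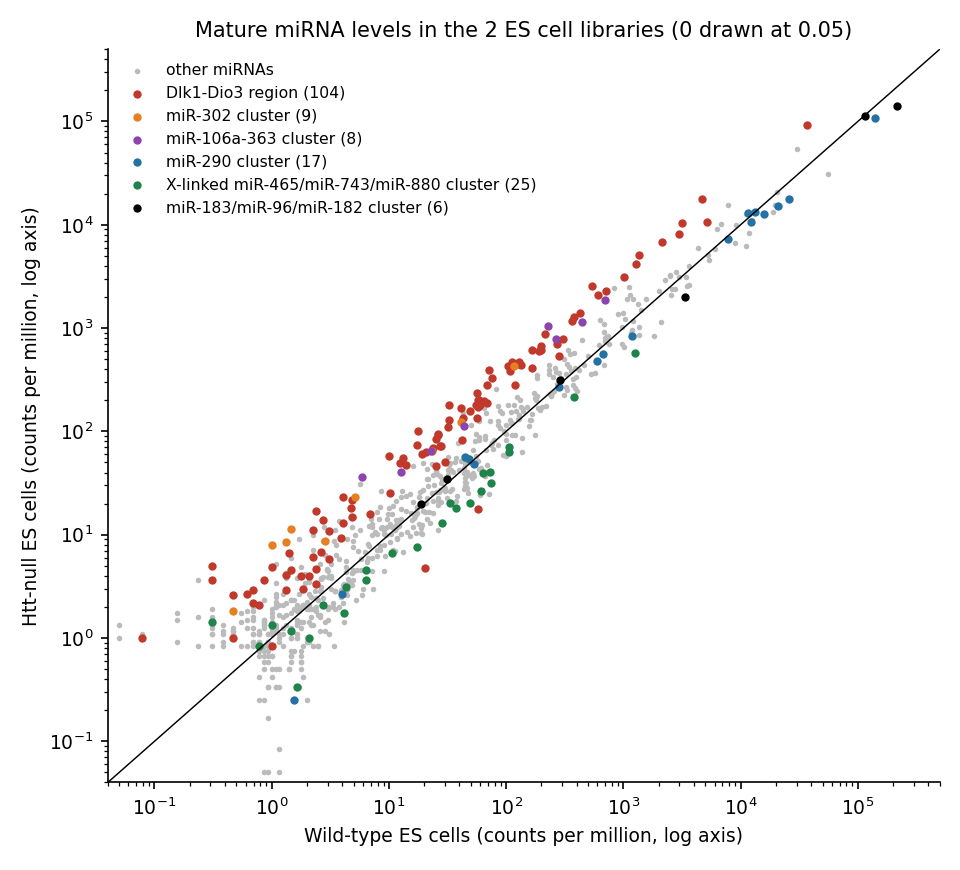
CPM of the 809 miRNAs in wild-type ESC (horizontal, log axis) and Htt-null ESC (vertical, log axis), 1 library each, with 6 groups in colour and a line of equal CPM. The 104 Dlk1-Dio3 miRNAs lie mostly above the line, as do the miR-302 and miR-106a-363 clusters, while the 25 miRNAs of the X-linked miR-465/miR-743/miR-880 cluster lie mostly below it.

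The miR-183/miR-96/miR-182 cluster (chr6:30165918-30169737, minus strand), which is also known from sensory organs, supplied more counts than any other list in both libraries. It held 25.8% of the counts in Htt-null and 33.3% in wild-type ESC, and 2 of its 6 members were lower. miR-182-5p was the leading miRNA of both libraries, with 1694470 counts (14.1%) in Htt-null and 2766434 (21.5%) in wild-type ESC, a log2 ratio of -0.83 with an interval from -0.84 to -0.83. miR-96-5p had 24144 and 43286 counts, and a ratio of -0.97. The neighbours on the same transcript did not move as far. miR-183-5p held 11.4% and 11.5% of the counts, with a ratio of -0.24, and the passenger strands miR-183-3p (-0.11), miR-182-3p (-0.10) and miR-96-3p (-0.15) lay near it. All 6 ratios were below 0 after TMM scaling, but with library size alone miR-182-5p and miR-96-5p came within the limit and the cluster's median of -0.20 became 0.03.

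miR-191-5p, which lies beside miR-425 (chr9:108568319-108568861, plus strand), was another abundant miRNA below the limit. It had 371363 counts (3.10%) in Htt-null and 713888 (5.54%) in wild-type ESC, a ratio of -1.07. Its cluster partner miR-425-5p, with 2801 and 3141 counts, had a ratio of -0.29. A like gap was seen at the miR-296/miR-298 hairpins (chr2:174267047-174267585), where miR-298-5p had 74696 and 142532 counts and a ratio of -1.06, while miR-296-5p, with 4622 and 4648, stayed at -0.13. miR-26a-5p (1.32% and 1.89%) sat on the limit with -0.76, and miR-27b-3p (2.09% and 2.06%), miR-148a-3p (1.57% and 1.96%) and miR-292a-5p (1.79% and 2.57%) had ratios of -0.21, -0.55 and -0.75. miR-5126, a short entry of unclear origin, had 188033 counts against 100662 and a ratio of 0.78, which came within the limit by median-of-ratios factors.

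The miR-290 cluster (chr7:3218626-3220841, plus strand) took a smaller share in Htt-null ESC. It held 2400907 counts there and 3207441 in wild-type ESC, and the median of its 17 members was -0.48. Only 3 of the 17 were lower by the limit, all of them near it or thinly counted: miR-292a-5p at -0.75, miR-292b-3p at -0.79 (32 and 51 counts) and miR-290b-3p at -2.66 (3 and 20 counts). The abundant miR-295-3p had 1292268 and 1789041 counts, 10.8% and 13.9% of the library, and a ratio of -0.59. miR-294-3p (182752 and 268591 counts) stood at -0.68, whereas miR-293-3p (154896 and 148965) stood at -0.07 and miR-291a-3p (88161 and 99931) at -0.31. Of the 17 ratios 16 were below 0 and the remaining member, miR-291b-5p, was at 0.09. The strands of the cluster that begin with another seed, CUCAAAC (miR-292a-5p, miR-293-5p and miR-290a-5p), went from 4.03% in wild-type to 3.20% in Htt-null ESC.

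The miR-302 cluster (chr3:127545228-127545807, plus strand), which is best known from epiblast-stage and primed pluripotent cells, showed the opposite. All 9 of its members with enough counts were higher in Htt-null ESC, with a median log2 ratio of 1.67 and a range from 1.25 to 2.72. miR-302d-3p had 5120 counts (427 CPM) in Htt-null and 1508 (117 CPM) in wild-type ESC, a ratio of 1.64 (1.56 to 1.72). miR-302b-3p had 1462 against 528 and miR-302a-3p 778 against 300. The last hairpin of the cluster, miR-367, with the miR-92a seed, had 96 counts of its 3p strand against 13, a ratio of 2.72 (1.92 to 3.72). The cluster was a small part of the pool, with 0.0677% of the counts in Htt-null and 0.0194% in wild-type ESC. For the shared seed AAGUGCU the miR-290 strands therefore set the sum, which was 13.1% in Htt-null and 16.8% in wild-type ESC over 5 miRNAs. This sum and the other sums by seed cover only the 689 miRNAs with a sequence, and so leave out miR-302a-3p and miR-292a-3p.

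The X-linked miR-106a-363 cluster (chrX:52741693-52742567, minus strand) was called higher in all 10 miRNAs that it alone encodes. The 8 of them from its miR-106a, miR-18b, miR-20b and miR-363 hairpins had a median of 1.30, and their sum was 0.508% of the counts in Htt-null and 0.172% in wild-type ESC. miR-363-3p had 22255 counts against 8960 (1.19), miR-20b-5p 13776 against 5702 (1.15) and miR-18b-5p 12487 against 2946 (1.96). Its paralogue miR-17-92 (chr14:115043671-115044506, plus strand) encodes 12 miRNAs, of which 2 (16.7%) were higher and none lower, with a median of 0.61. That share was below the background of 24.2% and above the 14.8% among the 705 miRNAs outside the Dlk1-Dio3 region. Listed by name, miR-17-92 has 14 members, 4 of them higher, since that list also takes in miR-92a-2-5p and miR-19b-2-5p of the X chromosome. With library size alone 10 of these 14 were higher. miR-17-5p and miR-20a-5p lay within the limit at 0.61 and 0.65. The higher strands were miR-19b-1-5p and miR-18a-5p, and the latter had 29193 counts against 10704 and stood at 1.32 (1.29 to 1.35). The non-coding host transcript of the cluster, Mir17hg, lay on the other side of 0, with 36.9 CPM in Htt-null and 58.7 CPM in wild-type ESC (log2 ratio -0.72). By contrast miR-19a-3p (6455 and 6400 counts) and miR-19b-3p (36977 and 38678) had ratios of -0.11 and -0.19.

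miR-92a-3p is cut from both clusters, and its 644732 counts in Htt-null (5.38%) and 386067 in wild-type ESC (3.00%) cannot be assigned to a locus. Its ratio was 0.61. The passenger strands do tell the loci apart. miR-92a-2-5p, from the X chromosome, had 118 counts against 29, a ratio of 1.88, and miR-92a-1-5p, from chromosome 14, had 14243 against 8190, a ratio of 0.67. For miR-19b the strands were nearer to each other, with miR-19b-2-5p from the X chromosome at 1.45 (105 and 35 counts) and miR-19b-1-5p from chromosome 14 at 1.33 (179 and 65). miR-17-5p and miR-106a-5p differ by no more than 1 base, so the mapping, which allowed 1 difference, could have dropped or exchanged some of their reads. The third paralogue, miR-106b-25, an intronic cluster of Mcm7, had no higher and 1 lower of 6 members, with miR-25-3p at -0.04 (153622 and 144898 counts), and its median of -0.15 became 0.08 with library size alone. Summed by seed, AUUGCAC (miR-92a, miR-25, miR-92b, miR-363, miR-32 and miR-367) went from 4.57% to 7.13%, AAAGUGC (miR-93, miR-20a, miR-17, miR-106b, miR-20b and miR-106a) from 0.911% to 1.24%, and AAGGUGC (miR-18a and miR-18b) from 0.106% to 0.348%.

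**Figure D2:**
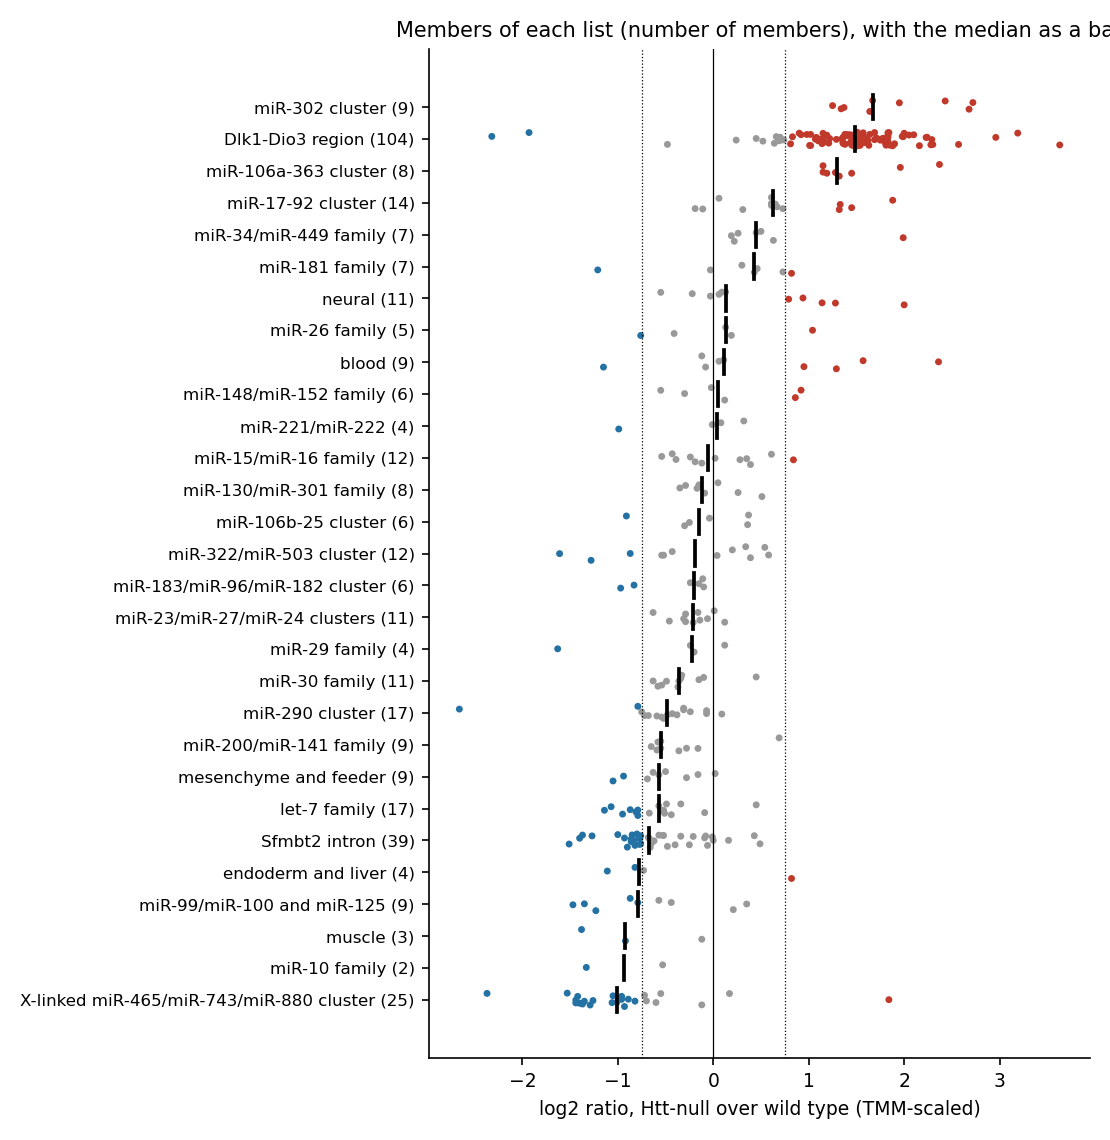
Log2 ratio between Htt-null and wild-type ESC (horizontal) for the members of each miRNA list (rows, with the number of members), coloured red above 0.75 and blue below -0.75, with the median as a black bar. The miR-302 cluster, the Dlk1-Dio3 region and the miR-106a-363 cluster have medians of 1.67, 1.48 and 1.30, and the X-linked miR-465/miR-743/miR-880 cluster has one of -1.01.

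The Dlk1-Dio3 region accounted for 92 of the 196 higher miRNAs, or 46.9%. Of its 108 miRNAs 104 had enough counts, and of these 92 were higher, 2 lower and 10 within the limit, with a median log2 ratio of 1.48. Together they took 18.4% of the counts in Htt-null and 6.62% in wild-type ESC. In the remaining 705 miRNAs 104 were higher and 148 lower, with a median of -0.14. The order of these counts depends on the scaling, as library size alone put 20.4% of the 705 above the limit, 12.5% below it and their median at 0.09. The leading strand, miR-127-3p, is encoded antisense to Rtl1, a retrotransposon-derived gene needed in the placenta. It had 1115404 counts (9.31%) in Htt-null and 478156 (3.71%) in wild-type ESC, a ratio of 1.10. Next came miR-410-3p with 214172 against 60829 counts (1.69), miR-541-5p with 126736 against 66496 (0.81, within the limit by median-of-ratios factors), and miR-434-3p with 122992 against 40407 (1.48). The next 4 strands by count in Htt-null ESC were miR-411-5p (1.22), miR-409-3p (1.45), miR-381-3p (1.69) and miR-300-3p (1.50).

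The higher ratios extended over all hairpin groups of the region that lie on the Meg3 strand. Counted from the start of Meg3 at chr12:109541001, the first group runs from 22.7 to 54.4 kb, over the end of Meg3 and the antisense side of Rtl1, and includes 4 miRNAs on the opposite strand. In it 22 of 26 miRNAs were higher with a median of 1.47, and its share went from 4.37% to 11.4%. The second group lies in Rian, at 70.5 to 77.3 kb, where all 6 miRNAs were higher with a median of 2.05. Among them miR-341-3p had 30516 counts against 6972, a ratio of 2.00, and miR-1188-5p 60 against 4, a ratio of 3.63 (2.35 to 5.70). The third and largest group, from miR-379 to miR-3072 at 168.1 to 206.9 kb (chr12:109709060-109747960), overlaps the annotated Mirg gene at its far end. There 64 of 69 miRNAs were higher with a median of 1.45, and the share went from 2.18% to 6.70%. The last hairpin, miR-1247, lies at 737.1 kb on the opposite strand beside Dio3, and both of its strands were lower: miR-1247-5p had 212 counts against 743 (-1.93) and miR-1247-3p 57 against 263 (-2.32).

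**Figure D3:**
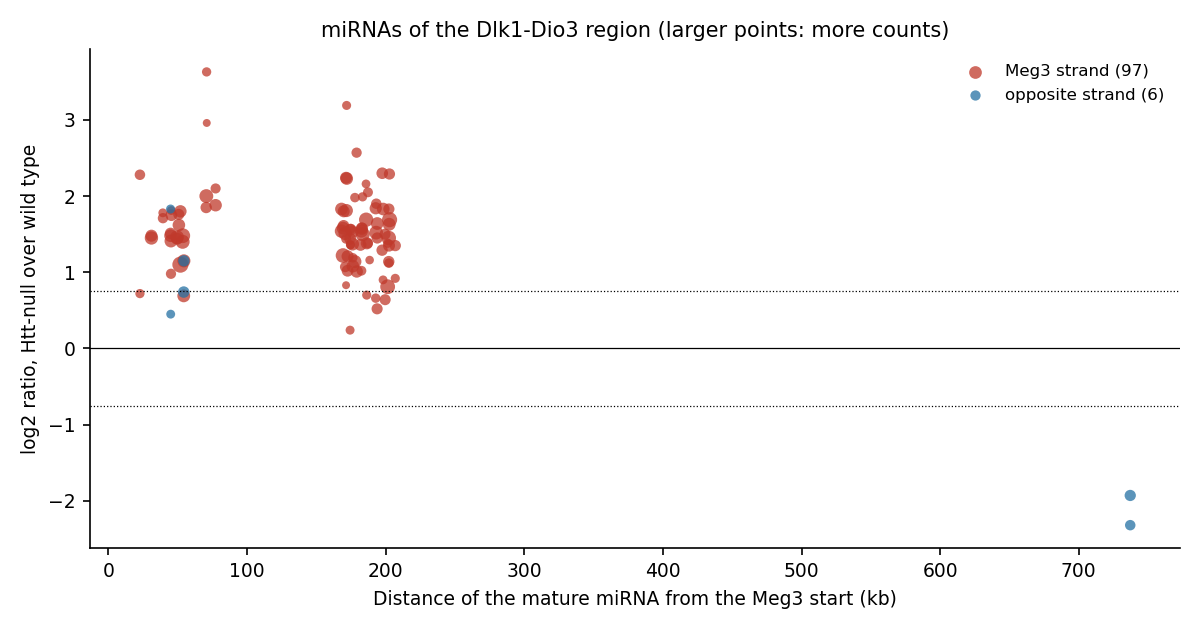
Log2 ratio between Htt-null and wild-type ESC (vertical) against the distance of each Dlk1-Dio3 miRNA from the start of Meg3 in kb (horizontal), with larger points for higher counts, red for the strand of Meg3 and blue for the opposite strand. The 3 groups before 210 kb lie above 0, and both strands of miR-1247 at 737.1 kb lie below -0.75.

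Within the region the ratios varied more than counting error allows. miR-541-5p at 0.81 (0.79 to 0.82) and miR-410-3p at 1.69 (1.68 to 1.70) come from the same group of hairpins, as do miR-668-3p at 0.52 (0.33 to 0.71) and miR-758-3p at 2.23 (2.12 to 2.33). The only other ratio below 0 was that of miR-3070-5p, encoded at 2 places, with 10 and 13 counts (-0.48, interval from -1.85 to 0.80). The RNAs of the region differed in the same direction in the RNA-seq libraries, with a smaller size. Meg3 had 138 CPM in Htt-null and 57.6 CPM in wild-type ESC (log2 ratio 1.21), Rian 408 and 201 CPM (0.97), and Mirg 14.6 and 9.29 CPM (0.60). Dlk1, the paternally expressed protein gene at the other end, had 2.96 and 1.29 CPM (1.14), and Dio3 had 3.54 and 5.75 CPM (-0.76). Each of these is again 1 library a side.

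At the other end of the distribution was the X-linked group of miR-465, miR-743, miR-880 and their neighbours (chrX:66776757-66839125, minus strand), a fast-evolving cluster best known from the testis. Of its 25 miRNAs 18 were lower, 1 higher and 6 within the limit, and the median was -1.01. Together they had 14062 counts (0.117%) in Htt-null and 29998 (0.233%) in wild-type ESC. miR-871-3p had 6944 counts against 16183 (-1.35) and miR-470-5p 2554 against 4882 (-1.06). The miR-465 copies, whose sequences above have a common seed, stood at -1.37 (miR-465a-5p), -0.93 (miR-465b-5p) and -0.82 (miR-465c-5p). With library size alone 13 of the 25 were lower, and miR-465b-5p and miR-465c-5p came within the limit. The single higher strand, miR-742-5p, rested on 17 and 4 counts. The X chromosome thus held both the higher miR-106a-363 cluster and this lower one, and its median over 86 miRNAs was -0.12.

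The tandem repeats of miR-466, miR-467 and miR-669 hairpins in an intron of Sfmbt2 (chr2:10370510-10595253), a gene expressed in the placenta, encode 39 of the miRNAs. After TMM scaling 18 were lower and none higher, with a median of -0.67. With library size alone 5 (12.8%) were lower, near the 11.1% of all 809 miRNAs, and the median was -0.44. The most abundant, miR-467a-5p, which is encoded at 10 places, had 1101 counts against 1551 (-0.62), and miR-467d-5p had 343 against 599 (-0.93). The host transcript itself had 25.2 CPM in Htt-null and 22.6 CPM in wild-type ESC, a log2 ratio of 0.10. These repeats are close to each other in sequence, so uniquely mapped reads may cover them unevenly.

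The let-7 family is kept low in ESC. After TMM scaling none of its 17 members was higher and 7 were lower, with a median of -0.57, and its share was 0.225% in Htt-null against 0.287% in wild-type ESC. let-7a-5p had 2955 counts against 5225 (-0.95), let-7f-5p 5236 against 8787 (-0.87) and let-7d-5p 440 against 850 (-1.07). With library size alone 2 of the 17 (11.8%) were lower, near the 11.1% of all 809 miRNAs under that scaling, let-7a-5p and let-7f-5p came within the limit, and the median was -0.34. With TMM all 5 strands of the cluster of let-7a, let-7f and let-7d on chr13:48536012-48538272 were lower, although let-7a-5p and let-7f-5p are also encoded elsewhere. The most abundant member, let-7c-5p (9541 and 9301 counts), stood at -0.09, with sequences of let-7a-5p and let-7b-5p within 1 base of it. The mRNAs of the let-7 repressors had log2 ratios of -0.23 (Lin28a, 227 and 255 CPM) and 0.22 (Lin28b, 45.4 and 37.5 CPM).

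The miR-99/miR-100 and miR-125 strands, which share clusters with let-7, had 5 lower and no higher among 9 members, or 3 lower with library size alone, where miR-125a-5p came within the limit. miR-125b-5p had 755 counts against 1768 (-1.35) and miR-125a-5p 10334 against 17376 (-0.87). The exceptions, with ratios above 0, were the strands of miR-99b. miR-99b-3p had 1378 counts against 1091 (0.21), and miR-99b-5p, the most abundant strand, had 121916 against 87511 (0.35), although the hairpin lies in the same cluster as miR-125a and let-7e (chr17:17830188-17830879). The family's median was therefore -0.79 while the ratio of its summed counts was 0.19. The Hox-linked miR-10 family, the hallmark of the RA-DIFF libraries with 83.3% and 79.9% of their counts by label, was low in both ESC libraries. miR-10a-5p had 10127 counts against 23372 (-1.33) and miR-10b-5p 25019 against 33115 (-0.53). These sequences differ by no more than 1 base, so the mapping could have dropped or exchanged some of their reads.

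Other families held few calls. No member of the miR-200/miR-141 family (9, median -0.55), the miR-30 family (11, median -0.36), the miR-23/miR-27/miR-24 clusters (11, median -0.21) or the miR-130/miR-301 family (8, median -0.12) was called, and the last 2 medians turned to 0.02 and 0.11 with library size alone. The p53-linked miR-34/miR-449 family had 7 ratios above 0 with a median of 0.45, but only miR-449a-5p, with 62 counts against 14, was higher (1.99). In the miR-181 family, miR-181c-5p (109543 and 81424 counts) stood at 0.30 and miR-181b-5p (320 and 166) was higher at 0.82, whereas miR-181a-1-3p (36 and 77) was lower at -1.21. Within the miR-148/miR-152 family, miR-152-3p (1787 and 863 counts) was higher at 0.92 and miR-148a-3p was at -0.55. Of 12 members of the miR-322/miR-503 cluster 3 were lower, led by miR-351-5p with 4361 counts against 7322 (-0.87), and the median of -0.19 became 0.04 with library size alone. The miR-15/miR-16 family (12 members) had 1 higher, and the miR-26 family (5) had 1 higher and 1 lower.

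Markers of other cell types were looked at in the same way, since fewer cells of a type and less RNA per cell cannot be told apart in a bulk library. The mesenchyme and feeder strands (miR-143, miR-145a, miR-199 and miR-214) held 0.704% in Htt-null and 0.932% in wild-type ESC, with 2 of 9 (22.2%, near the background of 18.5%) lower, none higher and a median of -0.57. With library size alone 1 of the 9 was lower, the same 11.1% as over all 809 miRNAs, and the median was -0.34. Of these miR-143-3p, at 80585 and 114517 counts, stood at -0.63 and miR-199a-5p, at 2710 and 4005, at -0.69. The fibroblast collagen mRNAs lay on the same side, with 351 reads in Htt-null and 831 in wild-type ESC for Col1a1 (log2 ratio -0.83) and 346 and 1058 reads for Col1a2 (-1.20). Fibroblasts also contain let-7, miR-125 and miR-10, and the part of feeder RNA in the differences of those families was not tested. Of 11 neural strands 5 (45.5%) were higher and none lower, beside 24.2% higher over all 809 miRNAs and 14.8% outside the Dlk1-Dio3 region. The leading neural strands, miR-9-5p (9546 and 8956 counts) and miR-124-3p (1885 and 1576), were at -0.03 and 0.13, and miR-218-5p was higher with 2000 against 833 (1.14). Among 9 blood strands 4 (44.4%) were higher, including both strands of miR-142a (1800 against 557 counts, 1.57, for miR-142a-5p), and 1 was lower, miR-150-5p with 1111 against 2265 (-1.15). The erythroid miR-451a had 20 and 17 counts. Of the muscle strands, 3 had enough counts, 2 of them lower: miR-499-5p (281 and 487 counts, -0.92) and miR-499-3p (11 and 27). In the endoderm and liver list miR-192-5p was lower with 13645 against 27023 counts (-1.11), miR-194-5p stood at -0.73, miR-215-5p was lower at -0.82 and miR-375-3p (110 and 57) higher at 0.82, though within the limit by median-of-ratios factors.

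The largest single differences among miRNAs with at least 100 counts came mostly from the groups above. The 10 highest ratios were those of miR-302a-5p (2.68), miR-667-5p (2.57), miR-302d-5p (2.43), miR-106a-3p (2.37), miR-154-3p (2.30), miR-410-5p (2.29), miR-770-3p (2.28), miR-1197-3p (2.24), miR-758-3p (2.23) and miR-670-3p (2.20). Of these 10, 7 had under 1000 counts in Htt-null ESC. The 10 lowest ratios were led by the strands of miR-1247 and by miR-184-3p, which had 294 counts against 922 (-1.77), followed by miR-741-3p, miR-365-3p, miR-125b-1-3p, miR-743b-3p, miR-463-5p, miR-471-5p and miR-465a-5p at -1.53 to -1.37, 5 of these 7 from the X-linked group. Among the 809, 5 had no count in one library. miR-670-5p had 16 counts in Htt-null ESC, with those 16 taken as they stand at least 4.89-fold higher than the 3 counts that 0 allows in wild-type ESC, and miR-8101 had 12 (at least 3.67-fold higher). miR-7052-3p, miR-1964-3p and miR-7236-3p had 15, 12 and 11 counts in wild-type ESC and none in Htt-null ESC, at least 5.45-fold, 4.36-fold and 4.00-fold lower. The miR-670 hairpin lies on chromosome 2, and its other strand, miR-670-3p, had 368 counts against 73.

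The strands of a hairpin come from one precursor, so a ratio that differs between them marks a shift in the balance of strands. Both were counted for 251 hairpins, each with 10 or more counts in either library. The balance moved towards the 5p strand by over 0.75 log2 units in 38 (15.1%) and towards the 3p strand in 31 (12.4%), with a median difference of -0.05. Both strands lay on the same side of 0 in 198 hairpins, with a Pearson correlation across hairpins of 0.69, or 0.51 for the 201 outside the Dlk1-Dio3 region. In 55 hairpins both strands were called higher, 41 of them in the Dlk1-Dio3 region, in 15 both were lower, and in 1 the calls were opposite. All 50 hairpins of the region had both strands on the same side of 0.

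Most shifts were found at low counts. Of the 135 hairpins with at least 100 counts for each strand in either library, 10 moved towards 5p and 4 towards 3p. The largest shift towards 5p was that of miR-667, whose 5p strand had 203 counts against 31 and whose 3p strand had 3363 against 1533, so that the 5p share went from 1.98% to 5.69% and the balance by 1.56 (1.01 to 2.11). In miR-302a the 5p share went from 5.96% to 14.9% (1.43), in miR-18a from 88.6% to 94.9% (1.26), in miR-877 from 16.9% to 28.7% (0.99) and in miR-340 it reached 97.8% (0.89). miR-18a has the most counts of these, and only its leading strand differed: the 3p strand had 1560 counts against 1374, a ratio of 0.06. The largest shifts towards 3p were those of miR-106a (5p share 97.8% to 95.6%, difference -1.05), miR-154 (57.6% to 40.3%, -1.01), miR-96 (99.4% to 99.0%, -0.81) and miR-30b (98.7% to 97.8%, -0.79). The fifth, miR-182, was within the limit at -0.73.

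The stronger strand was not the same in 15 hairpins, mostly where the strands were nearly even or few reads were counted. With 100 or more counts for each strand these included miR-154, where 308 5p and 227 3p counts in wild-type ESC stood against 822 and 1220 in Htt-null ESC, and miR-377, where 181 and 323 stood against 560 and 548. In miR-345, miR-700 and miR-291b the 5p share lay between 48.4% and 51.2% in both libraries. Over all miRNAs, the 352 named 5p strands held 49.3% of the counts in Htt-null and 58.6% in wild-type ESC, and the 385 3p strands 48.5% and 40.2%. The larger 3p share in Htt-null ESC was not seen outside the Dlk1-Dio3 region. There the 3p strands held 33.3% of all counts in Htt-null and 34.8% in wild-type ESC, and the 5p strands 46.1% and 57.4%. Over all miRNAs the calls were alike, with 85 higher and 72 lower 5p strands and 91 higher and 71 lower 3p strands, and medians of -0.09 and -0.06. Among the 72 miRNAs named without a strand 20 were higher and 7 lower, with a median of 0.26. They include miR-5126 and miR-3968 (29742 and 14495 counts, 0.91).

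**Figure D4:**
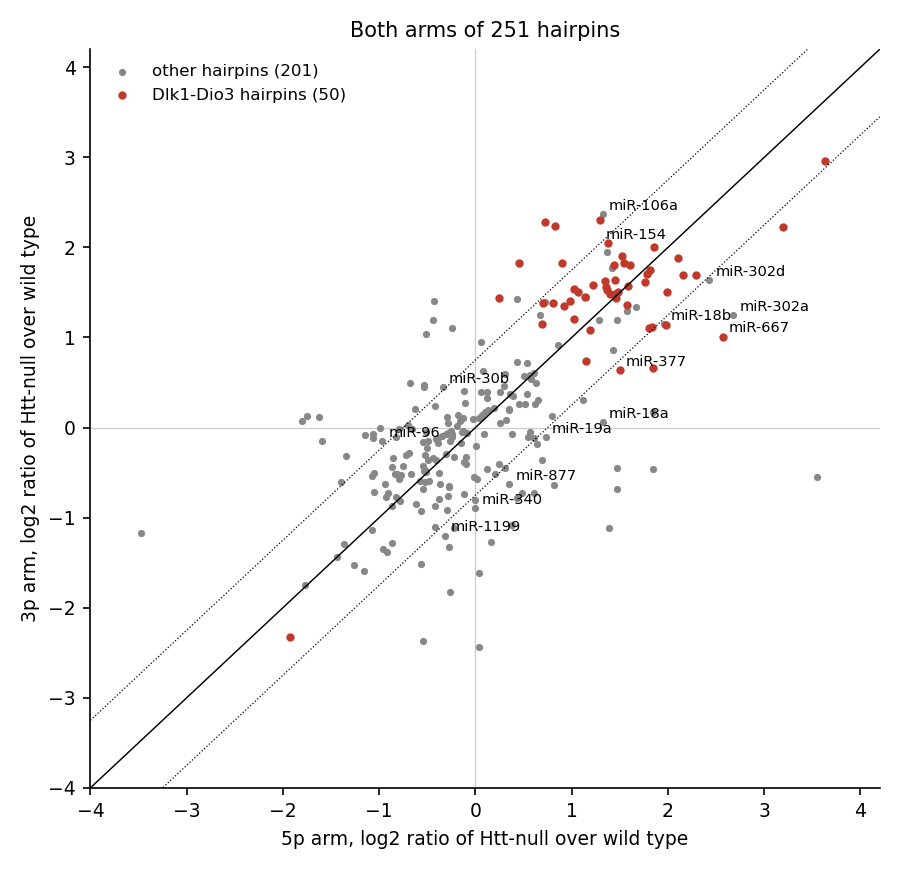
Log2 ratio between Htt-null and wild-type ESC for the 5p strand (horizontal) and the 3p strand (vertical) of 251 hairpins, red for the 50 of the Dlk1-Dio3 region, with a line of equal ratios and dotted lines 0.75 to each side. Most points lie near the line of equal ratios, and the 14 named hairpins are those beyond the dotted lines with at least 100 counts for each strand.

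By chromosome, the miRNAs of chromosome 12 had a median of 1.44, and the 20 of them outside the Dlk1-Dio3 region had one of 0.18. The next highest medians were 0.47 on chromosome 3 (25 miRNAs), where the miR-302 cluster lies, and 0.33 on chromosome 14 (26), the site of miR-17-92. The lowest was -0.53 on chromosome 2 (77 miRNAs), which holds the Sfmbt2 repeats. Chromosome 8, which carries none of these clusters, had a median of 0.03 over 32 miRNAs, with quartiles of -0.41 and 0.32.

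**Figure D5:**
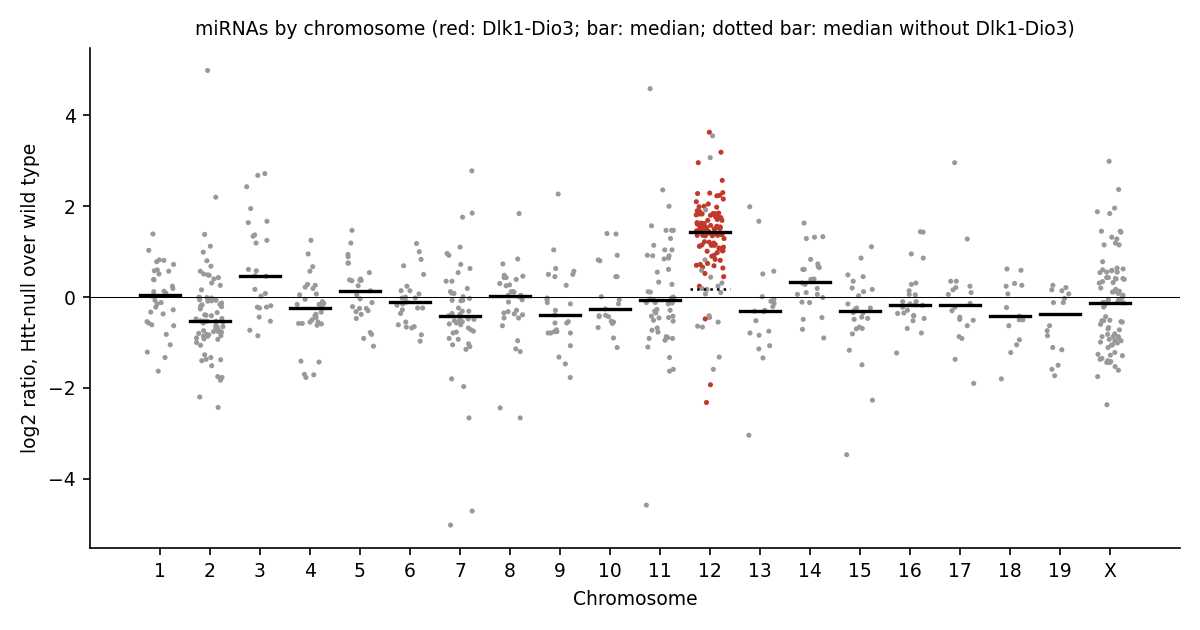
Log2 ratio between Htt-null and wild-type ESC (vertical) of the miRNAs encoded on a single chromosome, by chromosome (horizontal), with the Dlk1-Dio3 miRNAs in red and the median as a bar. Chromosome 12 has a median of 1.44 with that region and 0.18 without it (dotted bar), and the other medians lie between -0.53 and 0.47.

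Host transcripts were set beside their miRNAs. An annotated gene on the same strand with at least 100 reads in either ESC RNA-seq library held 443 of the miRNAs that are encoded at a single place, and 229 of these host genes were protein-coding. Across these 229 the mean ratio of a host's miRNAs and the ratio of its mRNA had a Pearson correlation of 0.14, and both had the same sign in 59.8%. The miRNA value was beyond 0.75 for 85 hosts and the mRNA for 11, and both for 4, namely Tlcd2 (miR-22), Fam114a1 (miR-574), Astn1 (miR-488) and Gap43 (miR-6540), which are named after their values were seen. In Fam114a1 and Gap43 both lay on the same side. miR-22 also lies in the non-coding Mir22hg, whose log2 ratio was -0.12, against 1.17 for Tlcd2. Of 17 non-coding hosts 10 had the same sign as the mean of their miRNAs, which was beyond 0.75 for 6, the host for 4 and both for 3. The mRNAs of the processing genes were close in the ESC libraries, with log2 ratios of -0.22 for Drosha, -0.13 for Dgcr8, 0.06 for Xpo5, -0.10 for Dicer1 and -0.22 for Ago2.

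The 22 miRNAs that the study named with anticorrelated targets were chosen on these libraries, so their ratios are no separate evidence. By the limit 6 of them were higher, 8 lower and 8 within it, with a median of -0.28. The shares were 27.3% higher and 36.4% lower, beside 24.2% and 18.5% of all 809 miRNAs. The balance depends on the scaling, as library size alone gave 8 higher and 3 lower and a median of -0.05. Those shares were 36.4% and 13.6%, beside 29.9% and 11.1% of all 809 under that scaling. The higher ones were miR-134-5p, miR-3072-3p, miR-106a-5p, miR-329-3p, miR-20b-5p and miR-495-3p (1.52 to 1.14), of which 4 belong to the Dlk1-Dio3 region and 2 to the miR-106a-363 cluster. The lower ones ran from miR-26a-5p at -0.76 to miR-365-3p at -1.52, the latter with 292 counts against 767. They also include miR-96-5p, miR-211-5p (693 and 1294 counts, -1.03) and miR-743b-3p (383 and 954, -1.44). miR-377-3p (0.64), miR-335-3p (0.14), miR-200b-3p (-0.59) and let-7b-5p (-0.44) were among those within the limit.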

How the data were processed

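The 8 libraries were assigned to groups by the sample labels, and all deposited columns matched a sample by name. For small RNA, the raw counts per mature miRNA deposited by the authors were made with cutadapt 1.3 (adapter removal), BWA 0.7.5a-r418 (placement of miRNA-sized reads on the mature sequences of miRBase, with up to 1 difference) and SAMtools 0.1.18 (selection of unique placements). For RNA-seq, they aligned poly(A) reads with TopHat2 2.0.14 and deposited raw counts per gene from HTSeq 0.6.1. A mature miRNA encoded at several places has a single entry. Versions are those of the submitters' processing notes.

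From these counts, TMM factors were computed over the 4 small RNA libraries with edgeR 4.0.16. The log2 ratio used a prior count of 0.5, a call needed a ratio beyond 0.75, and exact Clopper-Pearson intervals were taken at 95%. A count of 0 was given an upper limit of 3 counts (0.250 CPM in Htt-null and 0.233 CPM in wild-type ESC). With 1 library a side no difference was tested, apart from the assumed-dispersion alternative below, used for counts of calls only. The shift in a hairpin's balance of strands is log2 of 5p over 3p counts in Htt-null ESC minus the same in wild-type ESC. For it 0.5 was added to each raw count. Positions come from RefSeq on GRCm38 (804 of the 809 miRNAs) and host genes from GENCODE vM21. Lists were set by name (27), by position (the Dlk1-Dio3 region, the Sfmbt2 intron), by shared seed and as clusters with neighbours within 10 kb. Named miRNAs are the 10 with the largest share per library, the 10 highest and 10 lowest ratios with at least 100 counts, up to 4 leading members per list, the 5 largest strand shifts each way, those at 0 in one library and the 22 of the study. Members, lists and the rule were chosen with earlier results of these data known, and other miRNAs named here were picked after their values were seen. The ratio and interval steps were tested on simulated data. Alternatives covered the scaling, count filter, prior count, fold limit, near-identical sequences, summed counts and an edgeR exact test with an assumed dispersion. Analyses used Python 3.11.15, R 4.3.3 and DESeq2 1.42.0 (size factors only).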

Additional observations from a re-analysis of the deposited data

Results flagged for a closer look

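In ESC 8 lists had a median log2 ratio between Htt-null and wild type beyond 0.75. For 7 of them the median in RA-DIFF as labelled lay on the other side of 0. The remaining list, muscle, had medians of -0.92 in ESC, over 3 miRNAs, and -1.89 in RA-DIFF by label, both below 0. The medians in ESC and in RA-DIFF by label were 1.67 and -1.16 for the miR-302 cluster, 1.30 and -0.49 for the miR-106a-363 cluster, and 1.48 and -0.40 for the Dlk1-Dio3 region. They were -1.01 and 0.53 for the X-linked miR-465/miR-743/miR-880 cluster, -0.93 and 0.54 for the miR-10 family, -0.79 and 0.24 for miR-99/miR-100 and miR-125, and -0.78 and 0.18 for the endoderm and liver list. The difference between the stages was not tested, with 1 library for each condition. The RNA-seq counts of Htt go against the RA-DIFF labels, as given above. With those labels exchanged the RA-DIFF medians would take the opposite sign. The 7 lists were picked for opposite signs, so their agreement after an exchange follows from the choice and is no evidence on the labels. The muscle list would then lie on opposite sides of 0. Whether the RA-DIFF small RNA libraries are exchanged was not tested. With library size alone the ESC medians of the miR-10 family, of miR-99/miR-100 and miR-125 and of the endoderm and liver list came within the limit.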

How the results depend on the processing

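No paired analysis was possible because each condition has 1 library and the labels give no replicate numbers. The 196 higher miRNAs became 119 with at least 100 counts, 91 by the edgeR exact test at an assumed dispersion of 0.1 and 104 without the Dlk1-Dio3 miRNAs. The 150 lower ones became 90 with library size alone, 80 and 65 with at least 50 and 100 counts, 88 at a fold limit of 1, and 17 and 95 by the exact test at a dispersion of 0.1 and 0.01. The whole counting interval lay beyond the limit in 63.3% of the higher and 37.3% of the lower calls. Library size also gave 242 higher, so the split of calls depends on the scaling, and median-of-ratios factors gave 179 and 179. The 38 shifts towards 5p became 10 with at least 100 counts, 24 with at least 10 counts of both strands in both libraries, 23 at a fold limit of 1 and 7 with the whole counting interval beyond the limit, and the 31 towards 3p became 4, 22, 20 and 3. The other counts stayed within 1.5 times. Of 415 recomputed list medians 349 moved by no more than the counting error of a typical member, taken from the median width of the members' intervals. The median of miR-99/miR-100 and miR-125 turned from -0.79 to 0.19 as a ratio of summed counts, which miR-99b-5p sets. None of the 8 list medians beyond 0.75 changed sign with the scaling, while 12 medians nearer 0 did, but with library size alone 4 of the 8 came within the limit, at -0.57 for miR-99/miR-100 and miR-125, -0.70 for the miR-10 family, -0.69 for muscle and -0.55 for endoderm and liver. The muscle median, -0.92 over 3 miRNAs, was -0.12 both with at least 1 count and with the log2 CPM filter, where that of the miR-10 family was -0.74, and that of miR-99/miR-100 and miR-125 was -0.57 with at least 50 or 100 counts. Of 82 named miRNAs that were called, 19 came within the limit with library size alone, among them miR-182-5p, miR-96-5p, let-7a-5p, let-7f-5p, let-7g-5p, miR-125a-5p, miR-26a-5p, miR-351-5p, miR-215-5p, miR-499-5p, miR-465b-5p, miR-465c-5p and miR-467d-5p. Median-of-ratios factors brought 4 within it (miR-124-5p, miR-375-3p, miR-5126 and miR-541-5p), and TMM without the Dlk1-Dio3 miRNAs 6 (let-7g-5p, miR-26a-5p, miR-465c-5p, miR-467d-3p, miR-574-5p and miR-669c-5p). The interval rule and the run without Dlk1-Dio3 were added after seeing the data. Miscalls at low counts are limited by depth, and the spread between cultures was not measured.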
